A study of Mus musculus with 3 samples.

Results

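The integrated stress response and the unfolded protein response were described over 42 genes in mouse embryonic fibroblasts (MEF) cultured with n-butylidenephthalide (BP), a compound from Angelica sinensis. The genes were chosen by name from what is known of both responses. All 42 were found among the 35696 gene names of the array by matching each probe's accession or gene name to the current RefSeq symbol. They fall into an ATF4 arm of 22 genes and an ER arm of 20 genes. BP was written n-Butylenephthalide in the deposited labels.

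Total RNA came from C57BL/6 MEF that received no BP (control), BP at 10 µg/ml (BP10) or BP at 40 µg/ml (BP40). Each of these 3 RNAs was Cy3-labeled and run on a single one-colour Agilent mouse array. The labels record no treatment for the control, and the study describes it as DMSO, the solvent of BP. MEF were primary cells from minced C57BL/6 embryos without heads, legs and internal organs, so a culture holds a mixture of cell types, and nothing in the labels ties the arrays to separate embryos or cultures. Since each condition has 1 array, spread between replicates could not be measured, nothing was tested across samples, and every ratio below compares 2 arrays. The 3 arrays carry the same slide number, but BP10 and BP40 were scanned together and the control in another session. In a ratio against the control, an effect of BP and one of the scan cannot be told apart. In bulk RNA a lower signal from fewer cells of a type and from less RNA per cell cannot be told apart.

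Cells attenuate general protein synthesis by phosphorylating the initiation factor eIF2 alpha when amino acids run short, when unfolded proteins build up in the endoplasmic reticulum (ER), or under other stress. The transcript of the transcription factor ATF4 is then translated more, and ATF4 activates genes for amino acid synthesis, amino acid transport and tRNA charging. The ER has further sensors, IRE1 (Ern1) and ATF6, which act through XBP1 and the cleaved ATF6 protein on genes for chaperones, disulfide isomerases and ER-associated degradation. Fibroblasts secrete large amounts of collagen and other matrix proteins, and so depend on this folding machinery. Much of the regulation of ATF4, IRE1 and ATF6 is translational or by processing of the protein or transcript, which was not measured here.

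Short motifs mark many promoters of each arm, and the stretches of the members that hold them are shown because they are unevenly spread over the arms. Members and motifs were both chosen from what is known of these responses. The uneven spread can follow from that choice and is not a test. Promoter windows, 250 bases before to 50 after each start in the RefSeq annotation of GRCm38.p6, were at hand for 35 of the 42 genes and for 27025 genes in all (32851 windows). Eif4ebp1, Slc7a5, Wars, Nars, Atf6, Hyou1 and Manf had none. Both strands were searched for the CARE (TGATGNAA), which ATF4 binds with a C/EBP partner, for the ERSE (CCAAT, 9 bases of any kind, CCACG), which ATF6 binds with NF-Y, for the ERSE-II (ATTGG, 1 base, CCACG), for the UPRE (TGACGTGG) and for the CRE (TGACGTCA). Members were counted by gene, with the motif in any window of the gene, and the share over all windows by window. The CARE was in 6 of the 18 ATF4 arm genes with a window (Atf3, Trib3, Chac1, Asns, Aars and Gars), in 1 of the 17 of the ER arm (Herpud1) and in 3.97% of all windows. The ERSE was in 8 of the 17 ER arm genes with a window, in 0 of the 18 of the ATF4 arm and in 0.119% of all windows, 39 in number. Herpud1 also held an ERSE-II (0.0365% of all windows), Ppp1r15a alone held a CRE (1.79%), and no member held a UPRE (0.676%). No match of one motif overlapped a match of another in these genes.

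The CARE stretches upstream of the start are given 5′ to 3′ along the strand of the gene, with up to 20 bases on either side and the fixed letters of the motif in capitals. Where the motif lies on the opposite strand, its reverse complement is shown, as for all of these but Asns.
Atf3, chr1:191183416-191183463, minus strand: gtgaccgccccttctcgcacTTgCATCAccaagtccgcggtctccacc
Chac1, chr2:119351029-119351076, plus strand: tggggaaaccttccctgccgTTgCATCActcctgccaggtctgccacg
Asns, chr6:7693210-7693252, minus strand: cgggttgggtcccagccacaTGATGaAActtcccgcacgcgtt
Aars, chr8:111033710-111033757, plus strand: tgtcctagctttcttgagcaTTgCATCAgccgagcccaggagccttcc
Gars, chr6:55037951-55037998, plus strand: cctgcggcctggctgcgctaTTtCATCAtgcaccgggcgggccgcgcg
Herpud1, chr8:94386297-94386344, plus strand: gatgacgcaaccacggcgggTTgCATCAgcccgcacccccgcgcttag
The match of Trib3 and a further match of Aars lie after the start and are not printed.

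The ERSE stretches, and the ERSE-II of Herpud1, are given in the same way, with CCAAT and CCACG in capitals, which read CGTGG and ATTGG where the element lies on the opposite strand. In the ERSE-II, ATTGG and CCACG are in capitals.
Hspa5, chr2:34772005-34772063, plus strand: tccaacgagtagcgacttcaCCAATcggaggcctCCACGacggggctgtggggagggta
Hsp90b1, chr10:86705618-86705676, minus strand: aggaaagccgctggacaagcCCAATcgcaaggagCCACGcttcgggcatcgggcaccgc
Hsp90b1, chr10:86705513-86705571, minus strand: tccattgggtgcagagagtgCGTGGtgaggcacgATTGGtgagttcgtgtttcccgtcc
Dnajc3, chr14:118937807-118937865, plus strand: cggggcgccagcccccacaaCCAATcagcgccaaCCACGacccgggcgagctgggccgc
Calr, chr8:84847055-84847113, minus strand: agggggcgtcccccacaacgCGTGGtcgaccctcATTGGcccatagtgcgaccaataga
Canx, chr11:50325780-50325838, minus strand: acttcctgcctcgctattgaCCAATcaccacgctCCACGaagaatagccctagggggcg
Creld2, chr15:88819500-88819558, plus strand: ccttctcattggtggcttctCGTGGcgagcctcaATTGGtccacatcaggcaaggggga
Pdia6, chr12:17266471-17266529, plus strand: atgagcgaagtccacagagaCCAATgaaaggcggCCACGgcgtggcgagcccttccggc
Syvn1, chr19:6046512-6046570, plus strand: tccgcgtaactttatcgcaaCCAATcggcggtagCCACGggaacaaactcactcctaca
Herpud1, ERSE-II, chr8:94386357-94386407, plus strand: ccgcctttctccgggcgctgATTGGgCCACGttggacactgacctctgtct

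Signals below are log2 of the scanner's processed intensity minus the 75th percentile of the gene spots of the same array, so 0 is the level that 1 in 4 spots exceeded. A log2 ratio is the difference of this signal between 2 arrays. A gene was called where this difference reached 1 in either direction (2-fold) and the scanner software marked the probe as well above background on either array. Where the probe was marked on 1 of the 2 arrays only, the other signal was first raised to the lowest marked signal of its array, if below it. A difference that then pointed the other way was set to 0. A smaller difference of 1.5-fold (0.58 on the log2 scale), by the same rule, is counted beside the 2-fold one. The brightness of a gene is its mean log2 signal over the 3 arrays. Of the 42 genes, 41 were above background on all 3 arrays and had all 3 ratios, and the remaining gene, Ppp1r15a, lacked a value on the control array, where its spot was flagged as an outlier. Brightness was above 0 for 38 of the 42 genes, all but Atf3, Ern1, Atf6 and Hyou1.

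Array-wide, no gene spot was saturated. The share well above background was 81.7% for the control, 68.3% for BP10 and 69.1% for BP40. The median log2 ratio of the 10968 genes of brightness above 0 was -0.10 for BP10 against control, 0.06 for BP40 against control and 0.15 for BP40 against BP10. As measures of error, for probes printed 10 times per array the SD over their spots, in log2 signal, was 0.13 on the control array and 0.07 on each BP array (medians), and the SD of log2 ratio between 2 probes of a gene was 0.27 for BP10 and 0.19 for BP40 against control and 0.21 for BP40 against BP10 (medians over 3197 genes). All 10 fibroblast markers, among them Col1a1, Col1a2, Vim and Thy1, were above background on all 3 arrays, with median log2 ratios of -0.66 at BP10 and -0.63 at BP40, and all 5 macrophage markers were too, with -0.30 and -0.18. Markers of other cell types were above background on all 3 arrays as well: Kdr, Pecam1 and Tek of 4 endothelial markers, Krt8 and Krt18 of 4 epithelial, Tubb3, Nes, Sox10 and Map2 of 4 neural, Des, Myod1 and Myog of 4 skeletal muscle, and Sdc1 and Prdm1 of 4 plasma cell markers. Of the remaining ones, Cdh5, Epcam, Cdh1 and Irf4 were not above background on any array, and Myh3 and Jchain were on 1. Control signals of those above background on all 3 arrays in these other lists ran from -4.24 (Tek) to 3.16 (Tubb3). Myog (-3.39) and Map2 (-3.12) were also dim. Since 68.3% to 81.7% of all gene spots were above background, this mark alone does not show that such cells were present. The median log2 ratios of these other lists lay between -0.39 (skeletal muscle) and 0.14 (epithelial) at BP10 and between -0.23 (skeletal muscle) and 0.20 (plasma cell) at BP40. The part of cell makeup in the values of the 42 genes was not tested. Scaling on spike-in RNA instead put every ratio of BP40 against control or BP10 below 0 in the 42 genes, as given at the end. Of the genes of brightness above 0, 99.1% (against control) and 98.4% (against BP10) were below 0 with that scaling too. Each direction above 0 at BP40 thus holds for the scale used here.

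None of the 42 genes was called at 2-fold in any of the 3 comparisons. Over all genes, 12.9% were called for BP10 against control, 11.6% for BP40 against control and 3.67% for BP40 against BP10, and over the genes of brightness above 0 the shares were 2.2%, 1.75% and 1.7%. At 1.5-fold, 7 of 21 measured genes of the ATF4 arm were lower at BP10 than in the control (Atf4, Trib3, Chac1, Asns, Psat1, Psph and Slc7a5), against 0 of 20 of the ER arm, 21.8% of all genes and 6.87% of the genes of brightness above 0. At BP40, 2 of 21 of the ATF4 arm (Chac1 and Slc7a5) and 0 of 20 of the ER arm were lower than the control by 1.5-fold, against 19.7% of all genes and 4.53% of those of brightness above 0. For BP40 against BP10, 0 of 22 of the ATF4 arm and 1 of 20 of the ER arm (Dnajc3) were lower by 1.5-fold, against 5.55% and 2.94%. None of the 42 was higher by 1.5-fold in any comparison, against 6.77% and 6.95% of all genes at BP10 and BP40 beside the control and 7.81% between the doses, and 3.56%, 5.33% and 7.82% of those of brightness above 0. These counts moved with the processing. Set against genes of like brightness, as described further on, Dnajc3 (0.60) and Hyou1 (0.64) were higher by 1.5-fold at BP10. With this setting 5.18% of the genes of brightness above 0 were higher by 1.5-fold. At BP40 against control, Psat1 and Herpud1 were also lower by 1.5-fold with quantile normalization, with scaling on probes above background and with genes of like brightness, Psph with the first of these, and Trib3 and Herpud1 with normexp. Of the genes of brightness above 0, 5.41%, 5.36%, 5.43% and 4.67% were lower with these settings, in the same order. For BP40 against BP10, 3 genes of the ER arm were lower by 1.5-fold with quantile normalization, 3 with scaling on probes above background, 4 with genes of like brightness and 2 with the median of all probes. Here 4.39%, 4.29%, 5.38% and 2.99% of the genes of brightness above 0 were lower, in the same order.

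**Figure D1:**
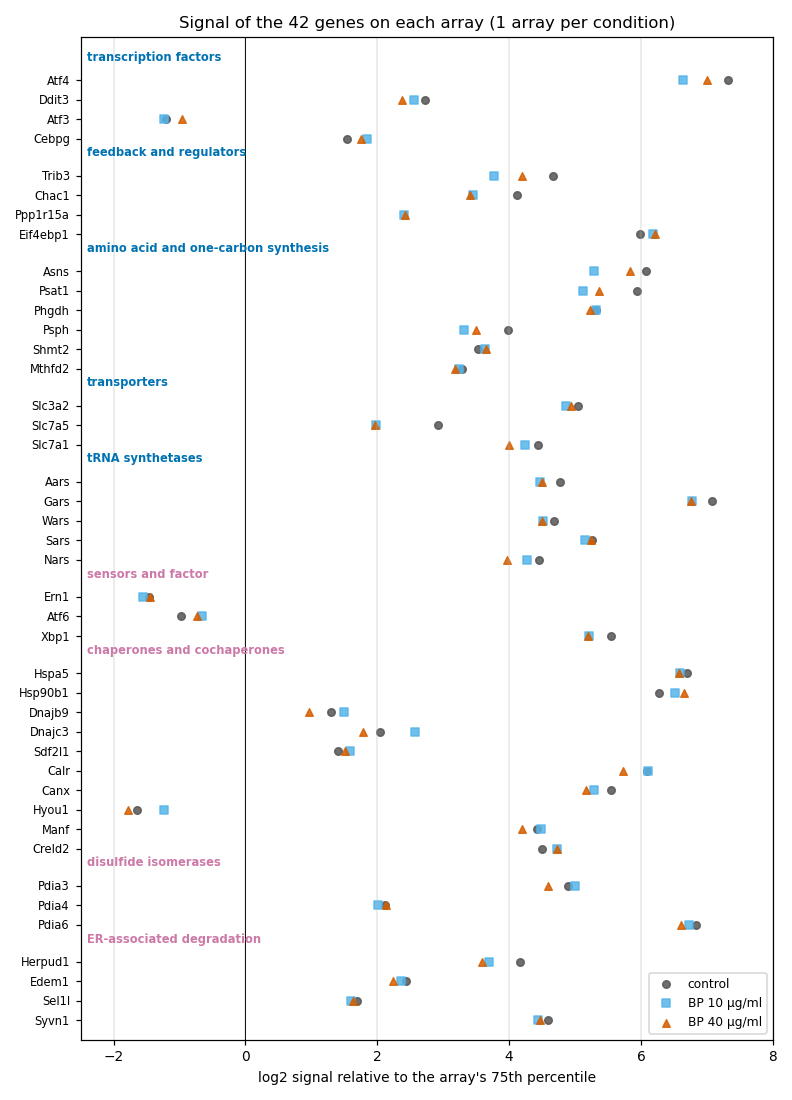
Log2 signal relative to the 75th percentile of the array (horizontal axis) of the 42 genes (rows, grouped by role, ATF4 arm in blue headings and ER arm in pink) on the control (circles), BP10 (squares) and BP40 (triangles) arrays, 1 array each. For Slc7a5, Chac1 and Trib3 both BP arrays lie left of the control, and Ppp1r15a has no control value.

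Of the transcription factors, Atf4 itself had log2 signals of 7.32 (control), 6.64 (BP10) and 7.0 (BP40), log2 ratios of -0.68 and -0.32 against control. The control was the highest array and BP10 the lowest. A dimmer probe of Atf4 gave 1.92, 2.17 and 1.97, ratios of 0.25 and 0.05, so the probes of this gene differed in direction and the lower Atf4 signal rests on the brighter probe. Ddit3, which encodes the pro-apoptotic factor CHOP, had signals of 2.73, 2.55 and 2.37 on the control, BP10 and BP40 arrays, ratios of -0.18 and -0.36. It was lowest at BP40. Atf3, a stress-induced factor, had -1.21, -1.24 and -0.96, and Cebpg, a C/EBP partner of ATF4, had 1.53, 1.84 and 1.75. The ratios of Atf3 (-0.03 and 0.25) and Cebpg (0.30 and 0.22) were close to the SD between 2 probes of a gene or below it.

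Among the feedback genes and regulators, Trib3, a pseudokinase that restrains ATF4 and CHOP, had signals of 4.67 (control), 3.76 (BP10) and 4.2 (BP40). Its ratios were -0.90 at BP10, which is 0.54 times the control, and -0.47 at BP40. Chac1, which degrades glutathione, had 4.12, 3.45 and 3.41, ratios of -0.68 and -0.72, and both BP arrays lay below the control by nearly the same amount. Eif4ebp1, a repressor of cap-dependent translation, had 5.99, 6.18 and 6.21, ratios of 0.19 and 0.22, of which the second turned to -0.01 with normexp. Ppp1r15a (GADD34), the phosphatase subunit that reverses eIF2 alpha phosphorylation, had 2.40 at BP10 and 2.43 at BP40, a difference of 0.02, with no control value.

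The genes of amino acid and one-carbon synthesis split by gene. Asns, asparagine synthetase, had log2 signals of 6.08 (control), 5.29 (BP10) and 5.84 (BP40), ratios of -0.78 and -0.24. Psat1, of the serine pathway, had 5.94, 5.11 and 5.37, ratios of -0.83 and -0.57. Psph, the last enzyme of that pathway, had 3.99, 3.31 and 3.50, ratios of -0.68 and -0.49. All of these were highest in the control and lowest at BP10. Phgdh, the first enzyme of the same pathway, had 5.31, 5.32 and 5.23, a range below 0.1 over the arrays. The mitochondrial folate enzymes also had small ratios, with signals of 3.53, 3.63 and 3.66 for Shmt2 and 3.28, 3.25 and 3.18 for Mthfd2. Under the normexp background correction, however, the BP10 and BP40 ratios against control were -0.29 and -0.34 for Shmt2 and -0.36 and -0.40 for Mthfd2. The second probe of Psat1 gave 0.33 and -0.23, and that of Psph -0.21 and -0.35.

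Slc7a5 (LAT1), the transporter of large neutral amino acids, had the lowest ratios of the 42 genes against the control, except that Trib3 was lower at BP10 with normexp (-1.03 against -0.89) and with the median of all probes (-0.90 against -0.84). Its signals were 2.93 (control), 1.98 (BP10) and 1.96 (BP40), ratios of -0.94 and -0.97 (0.52 times the control at BP10). Its second probe gave -0.73 and -0.76, so both probes were lower than the control by over 1.5-fold at both doses, and of the 10 genes with 2 probes it is the only one for which this held. Slc3a2 (CD98), the heavy chain that pairs with LAT1, had 5.05, 4.87 and 4.94, ratios of -0.18 and -0.11. Slc7a1, a cationic amino acid transporter, had 4.44, 4.23 and 3.99, ratios of -0.20 and -0.44. All 3 transporters were highest in the control, but Slc3a2 at BP10 lay at 0.01 after subtraction of its class of brightness.

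The tRNA synthetases, which charge tRNAs with amino acids, had small ratios of a single sign. All 5 (Aars, Gars, Wars, Sars and Nars) had ratios below 0 at both doses, from -0.31 to -0.10 at BP10 and from -0.48 to -0.02 at BP40, but at BP10 Aars (0.59) and Wars (0.13) turned with the median of all their probes and Sars (0.09) with the class of brightness described below. Of the genes of brightness above 0, 61.4% had ratios below 0 at BP10 and 42% at BP40. Gars, for glycine, had signals of 7.07, 6.77 and 6.76 on the control, BP10 and BP40 arrays, and Aars, for alanine, had 4.77, 4.47 and 4.50. Nars, for asparagine, was lowest at BP40 with 4.45, 4.28 and 3.97, and Sars, for serine, was nearly level with 5.25, 5.15 and 5.24. Wars, for tryptophan, had 4.68, 4.52 and 4.49, and its second probe gave ratios of 0.42 and -0.25.

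In the ER arm, the sensors had low signals. Ern1 (IRE1) had -1.46 (control), -1.56 (BP10) and -1.45 (BP40), and Atf6 had -0.98, -0.66 and -0.74, ratios of 0.32 and 0.24. Xbp1, whose transcript IRE1 splices, had 5.54, 5.21 and 5.20, ratios of -0.33 and -0.35, with both BP arrays below the control. The probe used was not placed on the exons of Xbp1, so whether it tells spliced from unspliced transcript is not known here.

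Hspa5 (BiP), an abundant ER chaperone and a common readout of the unfolded protein response, had log2 signals of 6.71 (control), 6.59 (BP10) and 6.58 (BP40), ratios of -0.12 and -0.13. These lie within the SD between 2 probes of a gene, and the BP10 ratio turned to 0.13 by quantile normalization. Hsp90b1 (GRP94) had 6.27, 6.51 and 6.65, ratios of 0.24 and 0.37, with the control lowest, but under the normexp correction they were -0.19 and -0.07. The lectin chaperones, which fold glycoproteins, were lower at BP40: Calr had 6.10, 6.11 and 5.72, and Canx 5.55, 5.29 and 5.16.

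Dnajc3 (p58IPK), a cochaperone of BiP that also inhibits the eIF2 alpha kinase PERK, was highest at BP10 and lowest at BP40, with signals of 2.05 (control), 2.57 (BP10) and 1.78 (BP40). Its ratios were 0.52 and -0.27 against control and -0.79 for BP40 against BP10, the widest difference between the doses among the 42 genes. Dnajb9 (ERdj4), a cochaperone for degradation, had 1.29, 1.5 and 0.97, and Hyou1 (GRP170), an exchange factor of BiP, had -1.65, -1.23 and -1.78. Both shared that order, although by quantile normalization Hyou1 at BP40 lay above the control by 0.06, and the second probe of Dnajb9 gave it too, with ratios of 0.24 and -0.50. Sdf2l1, a partner of BiP cochaperones, had 1.41, 1.59 and 1.51, and the secreted ER protein Manf had 4.43, 4.48 and 4.19.

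Creld2, an ER stress-inducible protein, was printed 10 times on each array, so its signal has an error of its own. The control gave 4.49 ± 0.11, BP10 4.73 ± 0.07 and BP40 4.72 ± 0.05 (SD between 10 spots). The BP arrays lay 0.23 above the control and level with each other. This spread is between spots of 1 array and not between cultures.

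Of the disulfide isomerases, Pdia3 (ERp57), which works with calreticulin and calnexin, had 4.89, 4.99 and 4.59 on the control, BP10 and BP40 arrays, lowest at BP40. Pdia4 had 2.12, 2.02 and 2.13, and Pdia6 had 6.84, 6.72 and 6.60. The second probe of Pdia6 gave ratios of -0.01 and -0.65, against -0.11 and -0.23 for the probe used, whose BP10 ratio turned to 0.13 by quantile normalization. Among the genes of ER-associated degradation, Herpud1, which holds both a CARE and an ERSE-II in its promoter window, had 4.16, 3.69 and 3.59, ratios of -0.47 and -0.57. Edem1, Sel1l and Syvn1, which recognise and ubiquitinate misfolded proteins, had ratios from -0.16 to -0.07 at BP10 and from -0.20 to -0.06 at BP40. Herpud1 was thus the member of this group with the lowest ratios, and all 4 were below 0 at both doses, except that Edem1 was at 0.00 at BP10 after subtraction of its class of brightness and Sel1l at 0.02 at BP40 with normexp.

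**Figure D2:**
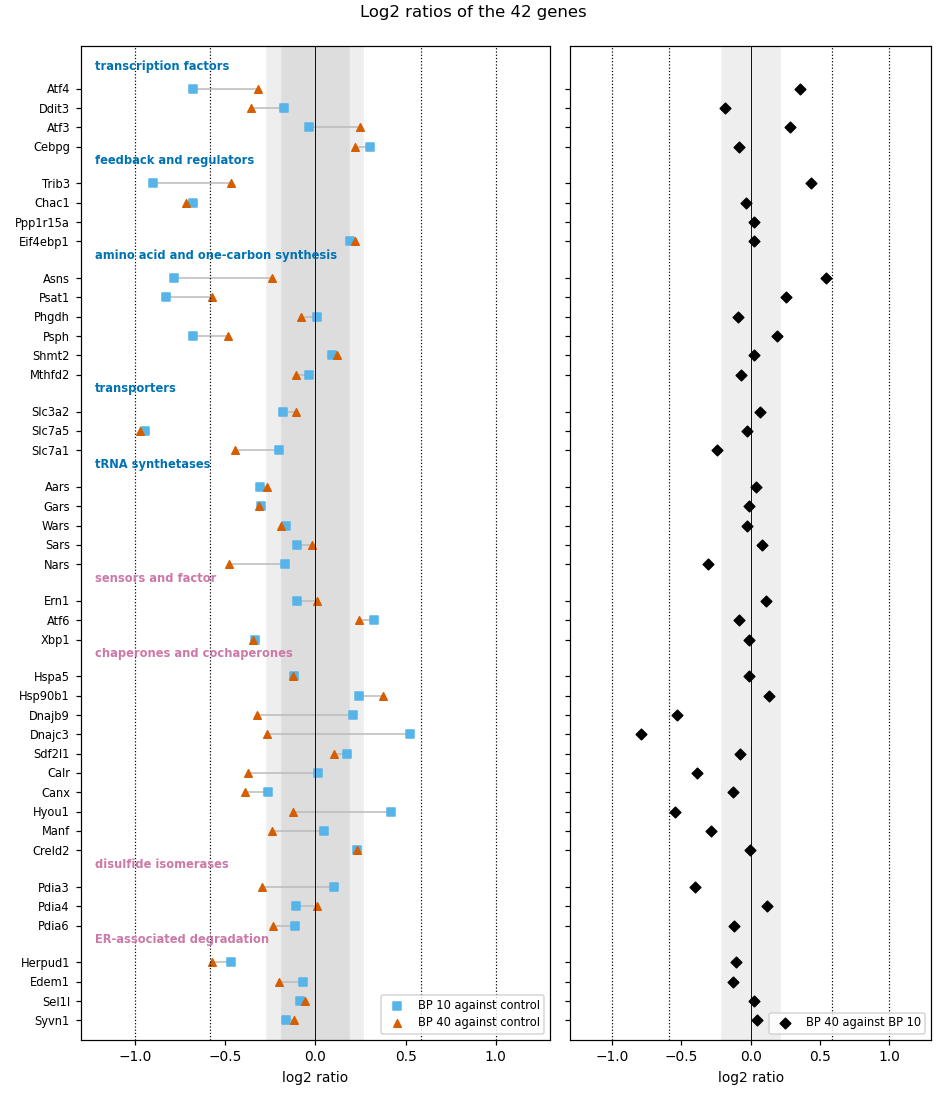
Log2 ratios (horizontal axes) of the 42 genes (rows, by role) for BP10 and BP40 against control (left) and for BP40 against BP10 (right), with dotted lines at 1.5-fold and 2-fold. Grey bands are the median SD of log2 ratio between 2 probes of a gene, on the left 0.27 for BP10 (light) and 0.19 for BP40 (dark) and on the right 0.21. No point passes 2-fold, and the points left of the 1.5-fold line against control are 7 ATF4 arm genes at BP10 and 2 at BP40.

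Taken by arm, the median log2 ratio of the ATF4 arm was -0.18 at BP10 and -0.27 at BP40 against control, with 17 of 21 genes below 0 at each dose. That of the ER arm was -0.03 at BP10, with 10 of 20 genes below 0, and -0.16 at BP40, with 14 of 20 below 0. Beside these counts, 61.4% (BP10) and 42% (BP40) of the genes of brightness above 0 had ratios below 0. The sign of the ER arm's median at BP10 turned with the scaling, from -0.11 on the E1A spike-ins to 0.14 by quantile normalization. The ATF4 arm lay below the ER arm by 0.15 at BP10 and by 0.11 at BP40, and above it by 0.12 for BP40 against BP10. A shift of a whole array leaves these differences as they are. The doses share the control array, so their ratios are not independent of each other.

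Split more finely, the 14 amino acid genes of the ATF4 arm (synthesis, transport and tRNA charging) had a median of -0.19 at BP10, with 12 of 14 below 0, and -0.25 at BP40, with 13 of 14 below 0. The 13 ER chaperones and isomerases had a median of 0.11 at BP10, with 9 above 0, and -0.23 at BP40, with 9 below 0. Hence the amino acid genes lay below the chaperones by 0.30 at BP10 and by 0.02 at BP40. Beside these counts, 61.4% (BP10) and 42% (BP40) of the genes of brightness above 0 had ratios below 0. Set against the class of brightness described below, 9 of 14 amino acid genes lay lower at BP10, with a median distance of -0.07. At BP40 13 of 14 did, with -0.32. For the chaperones and isomerases it was 2 of 13 at BP10 (0.21) and 9 of 13 at BP40 (-0.30).

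BP40 and BP10 were scanned together, so this comparison does not carry the difference in scan session. The ATF4 arm had a median log2 ratio of 0.03 between the doses, with 12 of 22 genes above 0, and Asns (0.55), Trib3 (0.43) and Atf4 (0.36) had the highest. The sign of this median turned with every alternative that changes the values. It was -0.02 with normexp and with the median of all probes, and -0.06 with scaling on probes above background. It was -0.13 by quantile normalization, -0.19 with the class of brightness described below and -0.89 on the spike-ins. The ER arm had -0.09, with 15 of 20 below 0, and Dnajc3 (-0.79), Hyou1 (-0.55), Dnajb9 (-0.53), Pdia3 (-0.40) and Calr (-0.39) had the lowest. Of the genes of brightness above 0, 31.5% had ratios below 0 in this comparison. Ratios on these arrays moved with brightness, so each gene was also set against the median of the genes in its class of brightness, 1 of 20 classes. Then 17 of 22 genes of the ATF4 arm and 19 of 20 of the ER arm lay below their class, by medians of 0.19 and 0.28, and all 13 chaperones and isomerases did, by a median of 0.41. At BP40 against control, 17 of 21 and 14 of 20 lay below their class, and at BP10 13 of 21 and 6 of 20 did. The median distances from the class were -0.33 and -0.24 at BP40 and -0.09 and 0.14 at BP10.

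**Figure D3:**
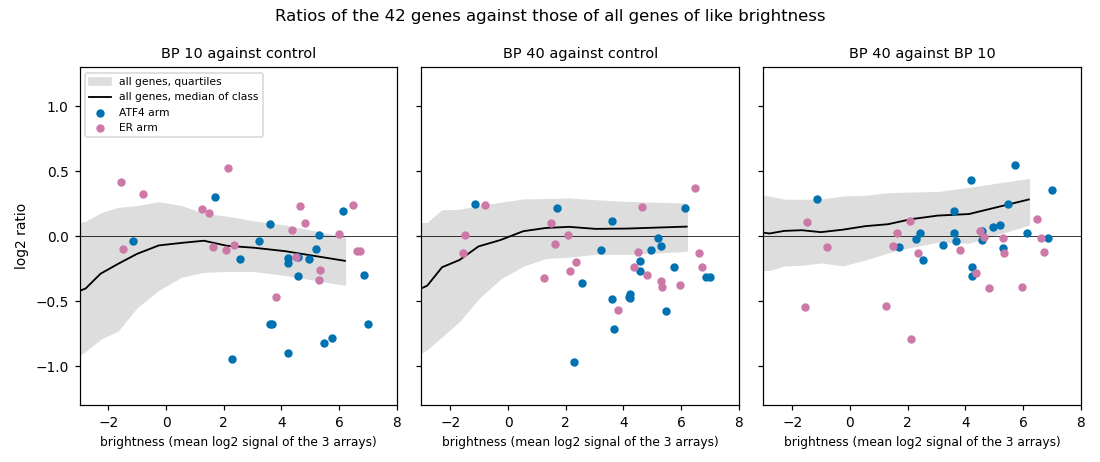
Log2 ratio (vertical axis) against brightness, the mean log2 signal of the 3 arrays (horizontal axis), for the genes of the ATF4 arm (blue) and the ER arm (pink), with the median (line) and quartiles (grey) of all genes in classes of brightness. At BP40 against BP10 the line lies above 0 for bright genes and 19 of 20 ER arm genes lie below it.

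The choice of probe touched several of the lower ratios at BP10. Of the 42 genes, 10 had 2 probes, and for all 10 the dimmer probe, which was not used, had the higher ratio at BP10, by a median of 0.34. Over 3197 genes with 2 probes above background this held for 62.5%, and over the 2234 of them whose brighter probe had brightness above 0 for 66.8%. Only RefSeq-named probes above background on all 3 arrays entered the 3197, a filter that was not set for the 10 genes. The second probe of Aars, above background on 2 arrays, would not pass it. For BP40 against control the dimmer probe was higher for 6 of the 10 genes, against 50.6% of the 3197. For BP40 against BP10 it was higher for 1 of the 10, against 34.2% of the 3197, with a median difference of -0.42. The dimmer probe of Atf4 gave -0.20 between the doses, where the probe used gave 0.36. When the probes of each gene were combined by their median, 4 of 21 genes of the ATF4 arm were lower than the control by 1.5-fold at BP10 in place of 7: Atf4, Psat1 and Psph no longer were. With this setting 7.43% of the genes of brightness above 0 were lower by 1.5-fold. Trib3, Chac1 and Asns had 1 probe each. The same median took Aars to 0.59 at BP10, through a second probe that was above background on 2 arrays and had a ratio of 1.48. After subtraction of the class median, 4 of 21 were lower by 1.5-fold at BP10 as well, beside 4.76% of the genes of brightness above 0.

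**Figure D4:**
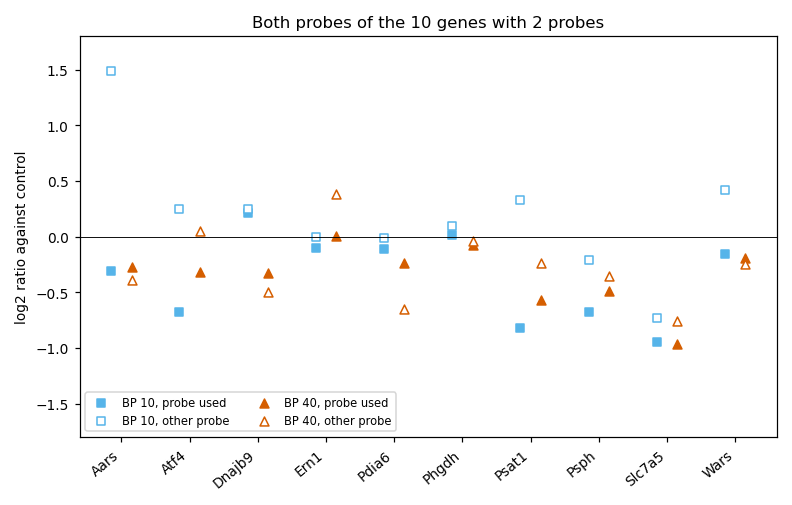
Log2 ratio against control (vertical axis) of both probes of the 10 genes with 2 probes, at BP10 (squares) and BP40 (triangles), filled for the probe used and open for the other. At BP10 every open square lies above the filled one, and only for Slc7a5 do both probes lie below -0.58 at both doses.

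Read against the promoter stretches above, the 6 ATF4 arm genes with a CARE had a median log2 ratio of -0.49 at BP10, all 6 below 0, and -0.29 at BP40, with 5 of 6 below 0. At BP10, however, Atf3 (-0.03) turned to 0.08 by quantile normalization and to 0.10 after subtraction of its class of brightness. Aars turned to 0.59 with the median of all its probes. The 11 measured genes with a window that lacked the CARE had -0.18 at BP10 and -0.11 at BP40, with 8 and 9 of 11 below 0. Beside these counts, 61.4% (BP10) and 42% (BP40) of the genes of brightness above 0 had ratios below 0. The ranges overlapped, from -0.90 to -0.03 with the motif and from -0.83 to 0.30 without it at BP10. In the ER arm, the 8 genes with an ERSE had medians of -0.05 at BP10 and -0.18 at BP40, and the 9 without had -0.08 and -0.20. With an ERSE the ratios at BP10 ran from -0.26 to 0.52, 4 below and 4 above 0. Slc7a5 had no window and stands in neither count.

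Of the wider pathway, 31 further ATF4 target genes had medians of -0.29 at BP10 and -0.28 at BP40 against control, with 24 of 31 below 0 at each dose, where 61.4% and 42% of the genes of brightness above 0 were. At BP10, 0 were higher and 2 lower by 2-fold, and at BP40 1 was higher and 1 lower. These 2 of 31 at each dose stand beside 12.9% and 11.6% of all genes and 2.2% and 1.75% of those of brightness above 0. Stc2, a secreted glycoprotein, had signals of 0.09 (control), -1.69 (BP10) and 0.03 (BP40), a ratio of -1.79 at BP10. Fgf21, a stress hormone, was lower at both doses with -2.06, -4.22 and -4.07, whereas Gdf15, another stress-induced hormone, had 1.56, 2.30 and 3.48, a ratio of 1.91 at BP40. Fgf21 was dim and had 1 probe. The lowest signals marked well above background were -5.07 at BP10 and -5.05 at BP40. In its class of brightness the lower quartile of the ratios of all genes was -0.96 at BP10 and -0.94 at BP40. For BP40 against BP10, 3 of 31 were called, beside 3.67% of all genes and 1.7% of those of brightness above 0, and all 3 were higher: Stc2 (1.73), Ddit4 (1.25) and Gdf15 (1.18).

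The 34 further genes of ER folding, translocation and degradation had medians of -0.10 at both doses. Of these 34, 1 was called, at BP40 against control, beside 11.6% of all genes and 1.75% of those of brightness above 0. Creb3l1 (OASIS), an ER-bound transcription factor of collagen-secreting cells, had signals of 3.95, 3.47 and 2.76 on the control, BP10 and BP40 arrays, a ratio of -1.19 at BP40. None of the 5 genes of eIF2 alpha and its kinases was called in any comparison. Of all genes 12.9% (BP10), 11.6% (BP40) and 3.67% (between the doses) were. Of those of brightness above 0, the shares were 2.2%, 1.75% and 1.7%. Eif2ak3 (PERK) had 0.89, 0.18 and 0.42, and Eif2s1, which encodes eIF2 alpha, had 4.54, 3.92 and 4.49, both lowest at BP10. Eif2ak2 had 0.54, -0.08 and 0.65, also lowest at BP10. Eif2ak1 and Eif2ak4 went the other way at BP10, each with a ratio of 0.08. At 1.5-fold, 3 of 5 were lower at BP10, beside 21.8% of all genes and 6.87% of those of brightness above 0. At BP40 0 of 5 were.

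All ratios above hold for arrays scaled on their own 75th percentile. The 9 bright E1A spike-in probes, added as external RNA, had a median log2 ratio of -0.13 for BP10 and 0.79 for BP40 against control on that scale. The difference between the median spike-in signals of 2 arrays, which was used to scale on them, was 0.08 for BP10 and 0.99 for BP40 against control. Subtracting either measure from the BP40 ratios would put all 41 measured genes below the control, since the highest BP40 ratio among them was 0.37. At BP10 the 2 measures differ in sign. The reason for the spike-in signal was not tested.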

How the data were processed

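The authors deposited the Feature Extraction 10.5.1.1 output of 3 one-colour Agilent arrays, with a background-corrected intensity per spot that was not scaled between arrays, and a series table that holds the same intensity for 100% of spots (relative tolerance 0.0001). The authors analyzed the arrays in GeneSpring GX, and their normalization is not given in the sources used here. From the deposited intensity, log2 was taken and the 75th percentile of the 59305 gene spots subtracted on each array. Outlier spots were left out and spots of a probe averaged. Of 55681 probes, 26425 (47.5%) were named through RefSeq and the others by the array's gene name. Each gene took the probe above background on most arrays, then the brightest.

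With 1 array per condition nothing was tested, and the small number of arrays sets the precision. All 42 members are named. Members, arms, the wider pathway lists and the motifs came from general knowledge and were chosen with earlier results of these data known. Alternatives were quantile normalization, scaling on probes above background or on E1A spike-ins, subtraction of the class median of brightness, the normexp correction (offset 50), the median of all probes, the series table, thresholds of 1.5-fold and 3-fold, and filters on dim probes. Python 3.11.15, numpy 2.4.6, pandas 2.3.3, matplotlib 3.10.9, R 4.3.3 and limma 3.58.1 were used.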

Additional observations from a re-analysis of the deposited data

Results flagged for a closer look

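Dnajc3 had a log2 ratio of 0.52 for BP10 against control and of -0.27 for BP40 against control, opposite directions at the 2 doses and each beyond the median SD between 2 probes of a gene. The difference between the doses was not tested, since each dose had 1 array.

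The E1A spike-in control spots, which serve above only as another scale, had a median log2 ratio of 0.79 for BP40 against control over 9 bright probes.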

How the results depend on the processing

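No paired analysis was possible because there was only 1 array of each kind, which also left none to drop. In place of 0 genes of the ATF4 arm called at 2-fold, scaling on E1A spike-ins called 1 for BP10 and 17 for BP40 against control and 4 for BP40 against BP10. Normexp called 1 at BP10 (Trib3), and quantile normalization, scaling on probes above background and subtraction of the class median of brightness each called 1 at BP40 (Slc7a5). The 1.5-fold threshold called 7 at BP10 and 2 at BP40. In place of 0 genes of the ER arm, E1A scaling called 14 for BP40 against control and 10 for BP40 against BP10. The 1.5-fold threshold called 1 of this arm for BP40 against BP10. With E1A scaling, 87.0% of the genes of brightness above 0 were lower by 1.5-fold for BP40 against control. For BP40 against BP10 the share was 71.2%, and for BP10 against control 10.3%. Their share at 2-fold with this scaling is not given here, so the E1A counts do not set either arm apart from other genes. E1A scaling took the medians to -1.26 (ATF4 arm) and -1.16 (ER arm) for BP40 against control and to -0.89 and -1.0 for BP40 against BP10, and the subtraction of the class median took the ATF4 arm to -0.19 for BP40 against BP10. With no filter on dim probes and with the median of all probes, 0 genes of either arm were called at 2-fold. The remaining settings (3-fold, a filter on both arrays, the series table of equal intensities) could not raise a count of 0. The sign of a median near 0 turned without scaling on spike-ins too. By quantile normalization the ER arm at BP10 went from -0.03 to 0.14 and the ATF4 arm at BP40 against BP10 from 0.03 to -0.13. Scaling on probes above background (0.01 and -0.06) and subtraction of the class median (0.14 and -0.19) turned both signs as well. Normexp and the median of all probes turned that of the ATF4 arm (-0.02 each). The median of all genes shifted by 0.18 and 0.10 (BP10 and BP40 against control) with quantile normalization, by 0.23 and 0.12 with the subtraction of the class median, and by 0.14 and 0.18 with normexp. Of 868 ratios of single genes, 123 moved beyond the SD between 2 probes, 83 of them with E1A scaling, whose shift of a whole array by its construction moves every ratio alike. Dim genes such as Ern1, Atf6, Atf3 and Hyou1, and Fgf21 of the wider list, are nearer the background and less certain.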
